A study of Mus musculus with 12 samples.

Results

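The 4 ligands of the bone morphogenetic protein (BMP) family examined here, Bmp2, Bmp4, Bmp6 and Gdf5, and 6 of its receptors, the type I receptors Bmpr1a, Bmpr1b and Acvr1 and the type II receptors Bmpr2, Acvr2a and Acvr2b, were followed across all libraries of the series. They are 10 of the 47643 genes in the deposited counts and were chosen by name, with Ensembl identifiers matched to mouse symbols. The choice was made with earlier results of these data known. The RNA came from C3H/10T1/2 cells, a mouse embryonic mesenchymal line of fibroblast shape that can form cartilage, bone or fat, grown in high-glucose DMEM with 10% FCS. The labels also carry the word sarcoma under disease. The cells were transfected once, without virus, with 0.5 µg of plasmid per cm2 in TurboFect polymer. The medium was changed after 4 h and RNA was taken at 3 days.

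There were 4 groups of 3 libraries each. BMP2ADV20a, BMP2ADV148b and BMP2ADV590 received a hybrid vector, named in the series after BMP2 and a miRNA (miR-20a, miR-148b or miR-590). BMP2ADV, the group they are set against, received the BMP2 plasmid with no miRNA in its name. The line, medium, transfection and time were the same in all 4 groups, and a BMP2 plasmid was given in each. No untransfected or mock-transfected cells were analysed here, so the values show differences between vectors and not the effect of BMP2 itself. Whether the 3 libraries within a group were separate cultures is not stated, so p-values measure only the spread between these libraries. In bulk RNA of a transiently transfected dish, fewer cells with a transcript and less transcript per cell cannot be told apart.

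BMP ligands are secreted dimers that bring together type I and type II serine/threonine kinase receptors. The type II receptor phosphorylates the type I receptor, which then phosphorylates Smad1, Smad5 and Smad9, and these enter the nucleus with Smad4 to switch on targets such as the Id, Msx and Dlx genes. In mesenchymal cells this pathway is best known for driving cartilage and bone formation, and it is held in check by secreted antagonists such as noggin and by the inhibitory Smads, which are themselves BMP targets.

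A miRNA pairs with transcripts mainly through its seed, bases 2 to 8, so the mature sequences named in the vectors are shown first, with the seed in capitals. The labels do not give the miRNA arm, and the 5p arm of miR-20a and the 3p arm of miR-148b were taken. Both are RefSeq sequences on GRCm38.p6, from chr14:115044183-115044205 and chr15:103285185-103285206, each on the plus strand. The mature sequence of miR-590 was not used here.
mmu-miR-20a-5p: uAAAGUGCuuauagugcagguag
mmu-miR-148b-3p: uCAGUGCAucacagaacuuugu

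The 7-base DNA complements of these seeds, GCACTTT for miR-20a-5p and TGCACTG for miR-148b-3p, were searched on the sense strand of the longest annotated 3′ UTR of each of the 10 genes. The motifs share the letters GCACT, but the same GCACT cannot be part of both, since the next letter is T in GCACTTT and G in TGCACTG. Bmpr2 held GCACTTT at 2 places, starting at bases 201 and 3877 of its 8529-base 3′ UTR. Acvr1 held TGCACTG once, from base 454 of 1105. The 30-base windows below are in transcript direction on GRCm38, with the motif in capitals, and are shown because they are the only matches in the 10 genes. They lie in 3′ UTR exons of Bmpr2 at chr1:59870671-59870700 and chr1:59874347-59874376 on the plus strand, and of Acvr1 at chr2:58447071-58447100 on the minus strand.
Bmpr2 first miR-20a window: tgttttttaagttttGCACTTTtgtttagt
Bmpr2 second miR-20a window: ttatggtatcacactGCACTTTtactctgt
Acvr1 miR-148b window: tgtgcattccttactTGCACTGtggccctt

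Neither motif was found in the 3′ UTRs of Bmp2, Bmp4, Bmp6, Gdf5, Bmpr1a, Bmpr1b, Acvr2a or Acvr2b, which ran from 339 bases in Bmp4 to 3810 bases in Bmpr1a. Among the 11591 tested genes with an annotated 3′ UTR, 15.6% held GCACTTT and 17.0% held TGCACTG, in UTRs with a median of 1399 bases. A match is a run of letters and not a measured site, and a window without one says nothing about binding.

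Total gene counts ran from 9236431 to 14727288 per library, and 17086 to 18055 genes had at least 1 count. They came from QuantSeq 3′ mRNA FWD, which reads the 3′ end of a transcript about once, so levels are given as normalised CPM (gene counts scaled to a common library total) without division by length. Mir148b reads were seen in BMP2ADV148b alone, with 211, 215 and 204 counts against 0 in every other library, and Mir20a had 0 counts in all 12. On the second principal component of all genes BMP2ADV590 replicate 2 lay at -23.4, against 22.6 and 9.63 for its group, so the members' results against BMP2ADV are also given without it. BMP2ADV replicate 3 lay at -9.53 there, against 8.45 and 12.4 for its group. The gene model Gm42418 held 4.07% to 10.04% of the gene counts of a library, with the highest share in BMP2ADV replicate 3. All 10 mesenchymal fibroblast markers were detected, at a summed 20410 to 24000 CPM per library. Adgre1 of macrophages, Cdh5 of endothelium, Krt8 of epithelium, Myod1 and Ckm of skeletal muscle and Sox10 of the neural crest had 0 counts in all 12. Other markers of these cell types had counts. Per library the lists summed to 1.33 to 3.495 CPM for macrophages, 5.22 to 11.88 CPM for endothelium and 6.54 to 19.6 CPM for epithelium. The sums were 8.72 to 16.5 CPM for skeletal muscle and 77.8 to 117.1 CPM for neural cells.

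Of the 10 genes 7 passed the low-count filter and were tested with edgeR's quasi-likelihood F-test, with Benjamini-Hochberg adjustment over 13229 genes and calls at 0.05. Bmp6, Gdf5 and Bmpr1b did not pass. Across the 4 groups at once, Bmp2 (adjusted p = 0.00534), Bmp4 (adjusted p = 0.00712) and Bmpr2 (adjusted p = 0.00829) differed in edgeR, against 6.25% of all genes tested. In BMP2ADV590, Bmp2 and Bmpr2 rose and Bmp4 fell relative to BMP2ADV. Those are 3 of the 7 tested members, beside 8.26% of all genes called in that comparison (4.37% higher and 3.89% lower). In BMP2ADV148b only Bmp2 rose, 1 of 7 beside 0.249% of all genes called (0.212% higher), and none of the 7 was called in BMP2ADV20a, where 0.476% of all genes were. The unadjusted p was under 0.05 for 2 of the 7 in BMP2ADV20a, beside 9.87% of all genes, and DESeq2 and limma-voom also called none there. The libraries of a hybrid group and BMP2ADV did not overlap for 2 of the 7 in BMP2ADV20a, 2 in BMP2ADV148b and 3 in BMP2ADV590, beside 16.5%, 14.7% and 25.1% of all genes.

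**Figure D1:**
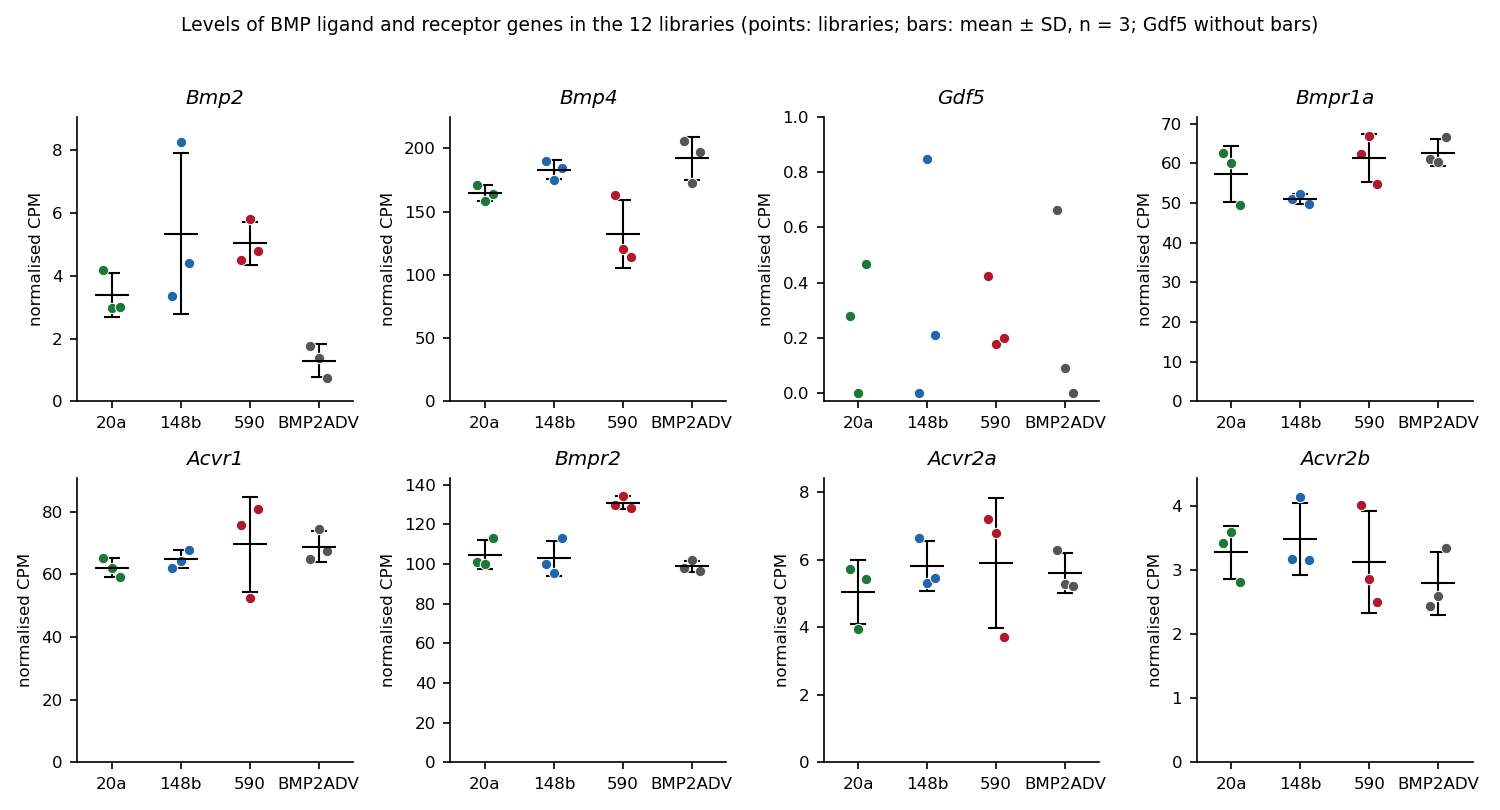
Normalised CPM of 8 of the 10 genes in each of the 12 libraries, with the hybrid groups under the last part of their names and BMP2ADV at the right; points are libraries, bars are the mean and SD of 3 libraries, and Bmp6 and Bmpr1b, at or near 0, are not drawn. Bmp2 lies lowest in BMP2ADV, Bmpr2 lies highest in BMP2ADV590, and Bmp4 lies lowest in BMP2ADV590.

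Bmp2 encodes the ligand that the plasmids carry. The mouse gene lies on GRCm38 chromosome 2 at 133552159 to 133562885, plus strand (ENSMUSG00000027358). It had 60, 40 and 32 counts in BMP2ADV20a, 33, 78 and 42 in BMP2ADV148b, 64, 65 and 48 in BMP2ADV590, and 24, 15 and 7 in BMP2ADV. All 9 hybrid libraries lay above all 3 BMP2ADV libraries. As CPM these were 4.19, 2.99 and 2.99 in BMP2ADV20a, 3.37, 8.26 and 4.41 in BMP2ADV148b, 4.51, 5.82 and 4.80 in BMP2ADV590, and 1.77, 1.39 and 0.732 in BMP2ADV.

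Counts assigned to mouse Bmp2 were thus scarce in every group, at 508 in all. BMP2ADV590 averaged 5.04 ± 0.686 CPM and BMP2ADV 1.30 ± 0.526 CPM (SD, n = 3 each), a log2 fold change of 1.91 (SE 0.381, 95% interval 1.13 to 2.70, edgeR adjusted p = 0.0021), or 3.76-fold. The call held with each of the 12 libraries left out in turn, and was 1.80 with adjusted p = 0.0068 in edgeR without BMP2ADV590 replicate 2. BMP2ADV148b averaged 5.35 ± 2.58 CPM, with replicate 2 well above the rest, and its log2 fold change against BMP2ADV was 2.00 (SE 0.383, 95% interval 1.21 to 2.79, edgeR adjusted p = 0.0326).

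That second call was less stable. In edgeR it was lost without BMP2ADV148b replicate 2 (1.54, adjusted p = 0.213) or replicate 3 (adjusted p = 0.0635), and without BMP2ADV replicate 1 (adjusted p = 0.0595), replicate 2 (adjusted p = 0.0948) or replicate 3 (adjusted p = 0.204). BMP2ADV20a averaged 3.39 ± 0.693 CPM, also without overlap with BMP2ADV, but the log2 fold change of 1.35 (95% interval 0.55 to 2.15) did not pass (edgeR adjusted p = 0.16). No difference in Bmp2 between hybrids passed the test. BMP2ADV590 against BMP2ADV148b gave -0.09 (95% interval -0.78 to 0.61), BMP2ADV590 against BMP2ADV20a 0.56 (95% interval -0.14 to 1.27) and BMP2ADV20a against BMP2ADV148b -0.65 (95% interval -1.36 to 0.06), with edgeR adjusted p = 0.937, 0.48 and 0.692.

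The labels name neither the species of the BMP2 insert nor its 3′ end. A read from plasmid RNA that matches the mouse gene would be counted as Bmp2, so the chromosomal gene and the plasmid cannot be told apart in these counts. Plasmid RNA that does not match the mouse gene would not be counted, so these counts may not hold all BMP2 RNA of the cells.

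Bmp4, a ligand close to Bmp2 in sequence and receptor use, lies on chromosome 14 at 46383520 to 46390669, minus strand (ENSMUSG00000021835). It measured 170.9, 158.5 and 163.7 CPM in BMP2ADV20a, 189.7, 175 and 184.3 CPM in BMP2ADV148b, 163.2, 120.5 and 113.8 CPM in BMP2ADV590, and 205.4, 172.8 and 197.4 CPM in BMP2ADV. All 3 BMP2ADV590 libraries lay below all 3 BMP2ADV libraries, but replicate 1 of BMP2ADV590 reached the level of BMP2ADV20a.

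Bmp4 fell to 132.5 ± 26.8 CPM in BMP2ADV590, against 191.9 ± 17.0 CPM in BMP2ADV (SD, n = 3 each). The log2 fold change was -0.53 (SE 0.104, 95% interval -0.75 to -0.32, edgeR adjusted p = 0.0018), that is to 0.692 of the level in BMP2ADV. It stayed called with any 1 library left out and was -0.47 without BMP2ADV590 replicate 2 (edgeR adjusted p = 0.00726). Against BMP2ADV148b, at 183 ± 7.43 CPM, BMP2ADV590 was also lower, by a log2 fold change of -0.46 (SE 0.105, edgeR adjusted p = 0.00908). That call was lost in edgeR without BMP2ADV148b replicate 1 (adjusted p = 0.06) or BMP2ADV590 replicate 3 (adjusted p = 0.0818).

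In the other pairs the Bmp4 difference did not pass the test. BMP2ADV20a averaged 164.4 ± 6.25 CPM, with every library below BMP2ADV, at a log2 fold change of -0.22 (95% interval -0.44 to -0.01, edgeR adjusted p = 0.486). BMP2ADV148b overlapped BMP2ADV, at -0.07 (95% interval -0.28 to 0.15, edgeR adjusted p = 0.905). BMP2ADV590 against BMP2ADV20a was -0.31 (95% interval -0.52 to -0.09, edgeR adjusted p = 0.142), and without BMP2ADV590 replicate 1 it was -0.50 and called (edgeR adjusted p = 0.00637).

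The 3′ end of Bmp4 lies in an exon of Gm15217 on the other strand, with 89 shared exon bases. Gm15217 had 0 counts, and reads in that stretch would be ambiguous if counted without strand. The antisense gene model Gm15222 runs within the span of Bmp4 without sharing exon bases. It had 4.59 ± 1.48 CPM in BMP2ADV590 and 7.12 ± 0.635 CPM in BMP2ADV, a log2 fold change of -0.66 that did not pass (edgeR adjusted p = 0.142). Its counts were few beside those of Bmp4, 899 against 22917 over all 12 libraries, and whether reads were counted by strand is not stated.

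Gdf5, a ligand of developing joints and cartilage (chromosome 2, 155941023 to 155945367, minus strand, ENSMUSG00000038259), was close to undetected. It had 4, 0 and 5 counts in BMP2ADV20a, 0, 8 and 2 in BMP2ADV148b, 6, 2 and 2 in BMP2ADV590, and 9, 1 and 0 in BMP2ADV. The sum was 9 counts in BMP2ADV20a and 10 in each of the other groups, so no difference was detectable at this depth. Gdf5 shares 936 exon bases with Gm15557 on the other strand, which had 0 counts. Reads there would be ambiguous if counted without strand. Bmp6, an osteogenic ligand (chromosome 13, 38345107 to 38500302, plus strand, ENSMUSG00000039004), had 0 counts in all 12 libraries. Taking 3 counts over a group as the limit that a count of 0 allows, this puts Bmp6 under 0.0782 CPM in BMP2ADV20a, 0.104 CPM in BMP2ADV148b, 0.0848 CPM in BMP2ADV590 and 0.0885 CPM in BMP2ADV.

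The Bmp6 value has a like limit, since 224 bases of its 3′ end lie in an exon of Txndc5 on the other strand. Txndc5 had 21828 counts. Reads in that stretch would be ambiguous if counted without strand. Ambiguous reads were 0.332% to 0.372% of the records of a library.

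Bmp4 therefore made up nearly all of the counts assigned to the 4 mouse ligand genes. It held 95.3% to 97.1% of their summed CPM in BMP2ADV590, against 98.8% to 99.6% in BMP2ADV. Plasmid BMP2 RNA that does not match the mouse gene is not in these sums. The summed ligand level was 137.8 ± 26.5 CPM in BMP2ADV590 and 193.4 ± 17.3 CPM in BMP2ADV (SD, n = 3 each). It was 168 ± 7.001 CPM in BMP2ADV20a and 188.7 ± 4.48 CPM in BMP2ADV148b.

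**Figure D2:**
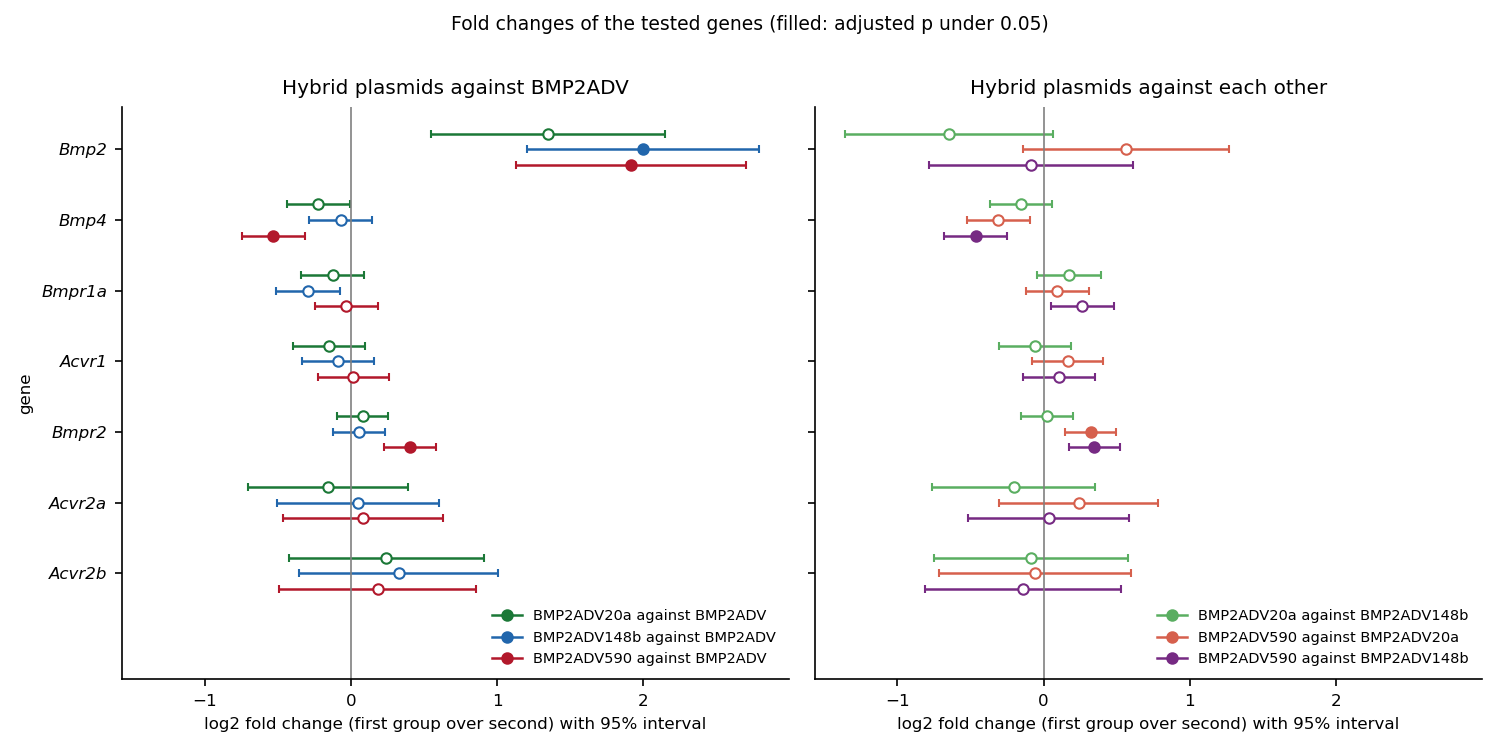
Log2 fold changes of the 7 tested genes with approximate 95% intervals derived from the edgeR test, for each hybrid group against BMP2ADV at the left and for pairs of hybrids at the right. Filled points passed the adjusted threshold. The filled points at the left are Bmp2 in BMP2ADV148b and BMP2ADV590 and Bmp4 and Bmpr2 in BMP2ADV590, and those at the right all belong to Bmp4 or Bmpr2 in BMP2ADV590.

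Of the type I receptors, 2 were abundant and 1 was nearly absent, and none of the tested pair was called in any of the 6 comparisons. Bmpr1a, also called ALK3, is the main type I receptor for Bmp2 and Bmp4 (chromosome 14, 34410734 to 34503341, minus strand, ENSMUSG00000021796). It measured 62.7, 60.2 and 49.4 CPM in BMP2ADV20a, 51.1, 52.3 and 49.7 CPM in BMP2ADV148b, 62.3, 66.9 and 54.8 CPM in BMP2ADV590, and 61.1, 60.4 and 66.6 CPM in BMP2ADV. The 3 BMP2ADV148b libraries lay below all of BMP2ADV, and the other groups overlapped it.

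For BMP2ADV148b, the Bmpr1a means were 51.0 ± 1.33 CPM and 62.7 ± 3.41 CPM in BMP2ADV (SD, n = 3 each), with a log2 fold change of -0.30 (95% interval -0.51 to -0.08). The unadjusted p was 0.0101 and the edgeR adjusted p = 0.391, so it did not pass. The other log2 fold changes of Bmpr1a against BMP2ADV were -0.12 in BMP2ADV20a (edgeR adjusted p = 0.742) and -0.03 in BMP2ADV590 (95% interval -0.25 to 0.18, edgeR adjusted p = 0.92), which was -0.094 without BMP2ADV590 replicate 2 (edgeR adjusted p = 0.73). BMP2ADV590 lay above BMP2ADV148b in every library, at a log2 fold change of 0.27 that did not pass either (edgeR adjusted p = 0.177).

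Acvr1, or ALK2, is the type I receptor that pairs above all with Bmp6 and Bmp7, and carries the miR-148b-3p match shown above (chromosome 2, 58388644 to 58567157, minus strand, ENSMUSG00000026836). It measured 65.2, 62.1 and 59.1 CPM in BMP2ADV20a, 62.2, 64.3 and 67.8 CPM in BMP2ADV148b, 75.7, 52.4 and 80.9 CPM in BMP2ADV590, and 64.8, 74.4 and 67.5 CPM in BMP2ADV. BMP2ADV590 held both the lowest and the highest library of the 12, and each hybrid group overlapped BMP2ADV.

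The log2 fold change of Acvr1 in BMP2ADV148b, the vector named for the miRNA with the match, was -0.09 against BMP2ADV (95% interval -0.34 to 0.16, edgeR adjusted p = 0.894). It was -0.15 in BMP2ADV20a (95% interval -0.39 to 0.10) and 0.02 in BMP2ADV590 (95% interval -0.23 to 0.26), with edgeR adjusted p = 0.728 and 0.957. Without BMP2ADV590 replicate 2, the low library, the value in BMP2ADV590 was 0.186 (edgeR adjusted p = 0.315).

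Bmpr1b, or ALK6, is the type I receptor best known from cartilage condensations and from binding Gdf5 (chromosome 3, 141837136 to 142169425, minus strand, ENSMUSG00000052430). It had 6 counts in all, 1 in BMP2ADV20a, 1 in BMP2ADV148b, 0 in BMP2ADV590 and 4 in BMP2ADV, and no difference was detectable at this depth.

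Bmpr2, the type II receptor that is used by BMPs and hardly by activins, was the receptor with a change (chromosome 1, 59763400 to 59879014, plus strand, ENSMUSG00000067336). It measured 100.9, 100.2 and 113.2 CPM in BMP2ADV20a, 100.2, 95.65 and 113 CPM in BMP2ADV148b, 129.8, 134.6 and 128.4 CPM in BMP2ADV590, and 98.1, 102.1 and 96.6 CPM in BMP2ADV. The 3 BMP2ADV590 libraries lay above the other 9, which overlapped one another.

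Bmpr2 rose to 130.9 ± 3.26 CPM in BMP2ADV590, against 98.95 ± 2.83 CPM in BMP2ADV (SD, n = 3 each). This was a log2 fold change of 0.40 (SE 0.0845, 95% interval 0.23 to 0.58, edgeR adjusted p = 0.00335), or 1.32-fold. The call held with any 1 library left out, and without BMP2ADV590 replicate 2 it was 0.385 (edgeR adjusted p = 0.0098).

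Against the other hybrids the rise of Bmpr2 in BMP2ADV590 was nearly as large but closer to the threshold. BMP2ADV590 was higher than BMP2ADV148b by a log2 fold change of 0.35 (SE 0.0848, 95% interval 0.17 to 0.52, edgeR adjusted p = 0.0164), where BMP2ADV148b averaged 102.9 ± 8.99 CPM. It was higher than BMP2ADV20a, at 104.8 ± 7.33 CPM, by 0.32 (SE 0.0841, 95% interval 0.15 to 0.50, edgeR adjusted p = 0.042). With a library left out, the difference from BMP2ADV20a passed only without BMP2ADV20a replicate 3 or BMP2ADV148b replicate 3 and was lost without any of the other 10, with edgeR adjusted p = 0.0352 to 0.233. It was also lost with the replicate number as a block (edgeR adjusted p = 0.0727). The difference from BMP2ADV148b was lost in edgeR without BMP2ADV148b replicate 1 (adjusted p = 0.11) or replicate 2 (adjusted p = 0.119) and without BMP2ADV590 replicate 3 (adjusted p = 0.0504).

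Bmpr2 also carries the pair of miR-20a-5p matches. In BMP2ADV20a its log2 fold change against BMP2ADV was 0.08 (95% interval -0.09 to 0.26, edgeR adjusted p = 0.804). In BMP2ADV148b it was 0.06 (95% interval -0.12 to 0.23, edgeR adjusted p = 0.904). BMP2ADV20a against BMP2ADV148b gave 0.02 (edgeR adjusted p = 0.975). The gene model Gm38125 lies within Bmpr2 on the same strand outside its exons, with 535 counts in all and a log2 fold change of 0.42 in BMP2ADV590 against BMP2ADV (edgeR adjusted p = 0.502).

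Acvr2a and Acvr2b, type II receptors shared by activins and BMPs, were far scarcer in counts, at 767 and 434 over all libraries against 14940 for Bmpr2. Acvr2a (chromosome 2, 48814109 to 48903269, plus strand, ENSMUSG00000052155) measured 5.73, 3.96 and 5.43 CPM in BMP2ADV20a, 6.65, 5.30 and 5.46 CPM in BMP2ADV148b, 7.19, 6.80 and 3.70 CPM in BMP2ADV590, and 6.28, 5.28 and 5.23 CPM in BMP2ADV. Acvr2b (chromosome 9, 119402118 to 119434995, plus strand, ENSMUSG00000061393) measured 3.42, 3.59 and 2.81 CPM in BMP2ADV20a, 3.17, 4.13 and 3.15 CPM in BMP2ADV148b, 4.02, 2.86 and 2.499 CPM in BMP2ADV590, and 2.44, 2.59 and 3.35 CPM in BMP2ADV. Every hybrid group overlapped BMP2ADV in both genes.

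The intervals of this pair are wide. In BMP2ADV590 against BMP2ADV, Acvr2a gave a log2 fold change of 0.08 (95% interval -0.46 to 0.63) and Acvr2b 0.18 (95% interval -0.49 to 0.86), with edgeR adjusted p = 0.912 and 0.819. Without BMP2ADV590 replicate 2 they were -0.02 and 0.249 (edgeR adjusted p = 0.982 and 0.793). Changes of the size seen for Bmpr2 lie inside both full intervals. In Acvr2a, 446 bases of the 3′ end lie in an exon of Orc4 on the other strand. Orc4 had 5520 counts and a log2 fold change of -0.15 in BMP2ADV590 against BMP2ADV (edgeR adjusted p = 0.486).

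Summed over the type II receptors, the level was 140 ± 4.94 CPM in BMP2ADV590, 113.1 ± 7.35 CPM in BMP2ADV20a, 112.2 ± 8.48 CPM in BMP2ADV148b and 107.3 ± 2.42 CPM in BMP2ADV. The sums of the type I receptors were 131 ± 10.2 CPM in BMP2ADV590, 119.6 ± 9.96 CPM in BMP2ADV20a, 115.8 ± 2.26 CPM in BMP2ADV148b and 131.7 ± 4.90 CPM in BMP2ADV. Bmpr2 made up 92.05% to 95.4% of the type II sum in BMP2ADV590 and 91.85% to 92.85% in BMP2ADV. The type II sum moved with Bmpr2, while the type I sums of BMP2ADV590 and BMP2ADV lay within their SDs of each other.

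**Figure D3:**
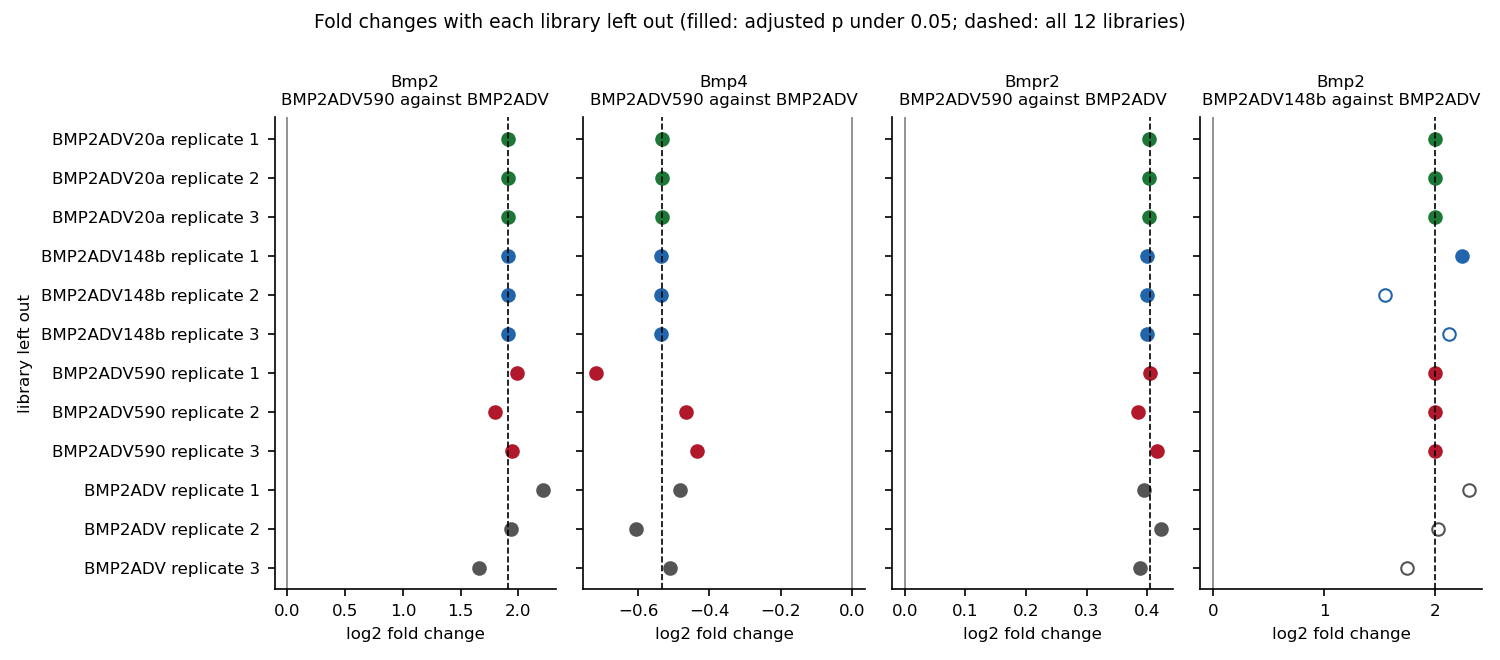
Log2 fold changes of Bmp2, Bmp4 and Bmpr2 in BMP2ADV590 and of Bmp2 in BMP2ADV148b, all against BMP2ADV, when the library named at the left is left out; filled points passed the adjusted edgeR threshold and dashed lines give the value with all 12 libraries. In BMP2ADV590 all 12 points of each gene are filled, and for Bmp2 in BMP2ADV148b 5 are open.

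Other genes of the pathway were then counted by role, in lists that were also drawn up with earlier results of these data known. Of 85 such genes in the files 59 were tested. In BMP2ADV590 against BMP2ADV 8 rose and 2 fell, 10 of 59 beside the 8.26% of all genes, with a median log2 fold change of 0.0578 beside 0.00195 over all genes. With a library left out, 4 to 9 rose and 2 to 4 fell; 4 rose without BMP2ADV590 replicate 1 and 5 without BMP2ADV replicate 3. With all 12 libraries and the low-count filter, edgeR called none of the 59 in BMP2ADV20a or BMP2ADV148b against BMP2ADV. There 8 and 7 had an unadjusted p under 0.05, beside 9.87% and 8.43% of all genes. Without the filter edgeR called Fst, Gdf15, Grem1 and Hey1 in BMP2ADV20a and Gdf15 and Hey1 in BMP2ADV148b. With only the 2 groups compared it called Fst, Gdf15 and Hey1 in BMP2ADV20a. With a library left out, Hey1 or Gdf15 passed in some fits of BMP2ADV20a. In BMP2ADV148b Hey1 passed without BMP2ADV590 replicate 2. DESeq2 called Hey1 in both hybrids and Gdf15 and Grem1 in BMP2ADV20a, and limma-voom called Gdf15 in BMP2ADV20a.

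Those that rose included several BMP targets and feedback inhibitors. Hey1, a transcription factor switched on by BMP and Notch signals, measured 169.3, 156.8 and 160.5 CPM in BMP2ADV590 and 88.6, 91.45 and 74.2 CPM in BMP2ADV. All BMP2ADV590 libraries lay well above BMP2ADV, with a log2 fold change of 0.93 (edgeR adjusted p = 1.66e-06). Hey1 was also higher in BMP2ADV590 than in BMP2ADV20a, at 112.5 ± 6.77 CPM, and than in BMP2ADV148b, at 112 ± 13.35 CPM (edgeR adjusted p = 0.00402 and 0.00114). Both of these hybrids also lay above every BMP2ADV library, without passing in edgeR with all 12 libraries and the low-count filter. Their log2 fold changes against BMP2ADV were 0.41 in BMP2ADV20a and 0.40 in BMP2ADV148b (edgeR adjusted p = 0.0604 and 0.102).

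Of the 13 tested BMP-SMAD targets, 3 rose and none fell in BMP2ADV590 against BMP2ADV, beside 4.37% and 3.89% of all genes. Beside Hey1 these were the homeobox genes Dlx5, at 33.5 ± 1.35 CPM in BMP2ADV590 and 21.96 ± 0.557 CPM in BMP2ADV (log2 fold change 0.61, edgeR adjusted p = 0.00164), and Msx1, at 35.0 ± 2.003 CPM in BMP2ADV590 and 23.85 ± 4.50 CPM in BMP2ADV (0.55, edgeR adjusted p = 0.0185). The Msx1 call was lost without BMP2ADV590 replicate 1 or 3 or BMP2ADV replicate 3. Id1, an inhibitor of basic helix-loop-helix factors and a direct Smad target, gave 0.06 (edgeR adjusted p = 0.718). Id2 gave 0.03, Id3 0.17 and Id4 0.63, also not called (edgeR adjusted p = 0.904, 0.208 and 0.238). For Gata3 every BMP2ADV590 library lay below BMP2ADV, at -0.46, without passing (edgeR adjusted p = 0.161). The median log2 fold change of the tested targets was 0.166, beside 0.00195 over all genes.

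Among 12 tested extracellular antagonists and decoys, 3 rose and none fell in BMP2ADV590 against BMP2ADV, beside 4.37% and 3.89% of all genes. Bambi, a decoy receptor without a kinase domain, measured 115, 89.5 and 89.2 CPM in BMP2ADV590 and 70.1, 65.6 and 46.4 CPM in BMP2ADV (log2 fold change 0.69, edgeR adjusted p = 0.00164). Grem1, a secreted BMP antagonist, averaged 55.4 ± 2.55 CPM in BMP2ADV590 and 38.55 ± 5.06 CPM in BMP2ADV (0.52, edgeR adjusted p = 0.00288). Grem1 in BMP2ADV20a also lay above every BMP2ADV library, at 51.8 ± 3.34 CPM. It did not pass in edgeR with all 12 libraries and the low-count filter (0.42, adjusted p = 0.0913). BMP2ADV590 against BMP2ADV20a gave 0.10 for Grem1 (edgeR adjusted p = 0.75). In BMP2ADV148b Grem1 overlapped BMP2ADV, at 41.6 ± 1.32 CPM. The antagonist Nog was scarce, at 4.27 ± 1.02 CPM in BMP2ADV590 and 1.42 ± 0.19 CPM in BMP2ADV (1.58, edgeR adjusted p = 0.0422), and its call was lost without BMP2ADV590 replicate 1 or 3 or any 1 of the BMP2ADV libraries. The libraries of BMP2ADV590 and BMP2ADV did not overlap in Bambi, Grem1 or Nog.

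Among the 9 tested intracellular inhibitors only Smad6 passed, beside 8.26% of all genes. It measured 167, 117.6 and 129.7 CPM in BMP2ADV590 and 102, 104.6 and 95.2 CPM in BMP2ADV (log2 fold change 0.46, edgeR adjusted p = 0.00591). Replicate 1 was the highest BMP2ADV590 library, and the call was lost without it (edgeR adjusted p = 0.064). Of 4 tested genes of ligand processing 1 was called, beside 8.26% of all genes. Furin, a protease that cuts BMP precursors, rose to 89.5 ± 6.16 CPM in BMP2ADV590, against 69.45 ± 9.55 CPM in BMP2ADV (0.36, edgeR adjusted p = 0.029). The call was lost without BMP2ADV590 replicate 1 or 2 or BMP2ADV replicate 2 or 3. It was also lost with only the 2 groups in the fit (edgeR adjusted p = 0.0645). Without BMP2ADV590 replicate 2, Furin gave 0.309 (edgeR adjusted p = 0.0949) and the other 9 pathway calls held.

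The falls were in the ligands and Smads. Gdf15, a stress-induced ligand distant from the BMPs, fell to 3.45 ± 0.919 CPM in BMP2ADV590, against 8.62 ± 1.63 CPM in BMP2ADV (log2 fold change -1.32, edgeR adjusted p = 0.00427). It was the 1 call among 6 tested other ligands, beside 8.26% of all genes. In the other hybrids Gdf15 also lay below every BMP2ADV library, without passing in edgeR with all 12 libraries and the low-count filter. It averaged 3.87 ± 1.45 CPM in BMP2ADV20a (-1.18, edgeR adjusted p = 0.0636) and 4.11 ± 0.125 CPM in BMP2ADV148b (-1.07, edgeR adjusted p = 0.153). Between BMP2ADV590 and these hybrids no difference in Gdf15 passed (-0.15 against BMP2ADV20a and -0.25 against BMP2ADV148b, edgeR adjusted p = 0.882 and 0.756). Smad3, which carries TGF-beta and activin signals, fell to 40.6 ± 5.02 CPM in BMP2ADV590, against 55.9 ± 4.46 CPM in BMP2ADV (-0.47, edgeR adjusted p = 0.00798). It was the 1 call among 6 tested genes, the receptor-activated Smads and Smad4, beside 8.26% of all genes. Smad3 averaged 43.6 ± 1.42 CPM in BMP2ADV20a (-0.36, edgeR adjusted p = 0.195) and 45.5 ± 3.37 CPM in BMP2ADV148b (-0.30, edgeR adjusted p = 0.404), likewise below every BMP2ADV library. The Smads of the BMP branch did not pass: Smad1 gave -0.19, Smad5 -0.01 and Smad9 0.16, and the common partner Smad4 -0.20 (edgeR adjusted p = 0.541, 0.957, 0.682 and 0.265). Neither the 4 other receptors tested nor the 5 co-receptors held a call in BMP2ADV590 against BMP2ADV, beside 8.26% of all genes. Of the co-receptors 2 had an unadjusted edgeR p under 0.05, beside 21.2% of all genes. Tgfbr3 was called in edgeR without BMP2ADV replicate 1.

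**Figure D4:**
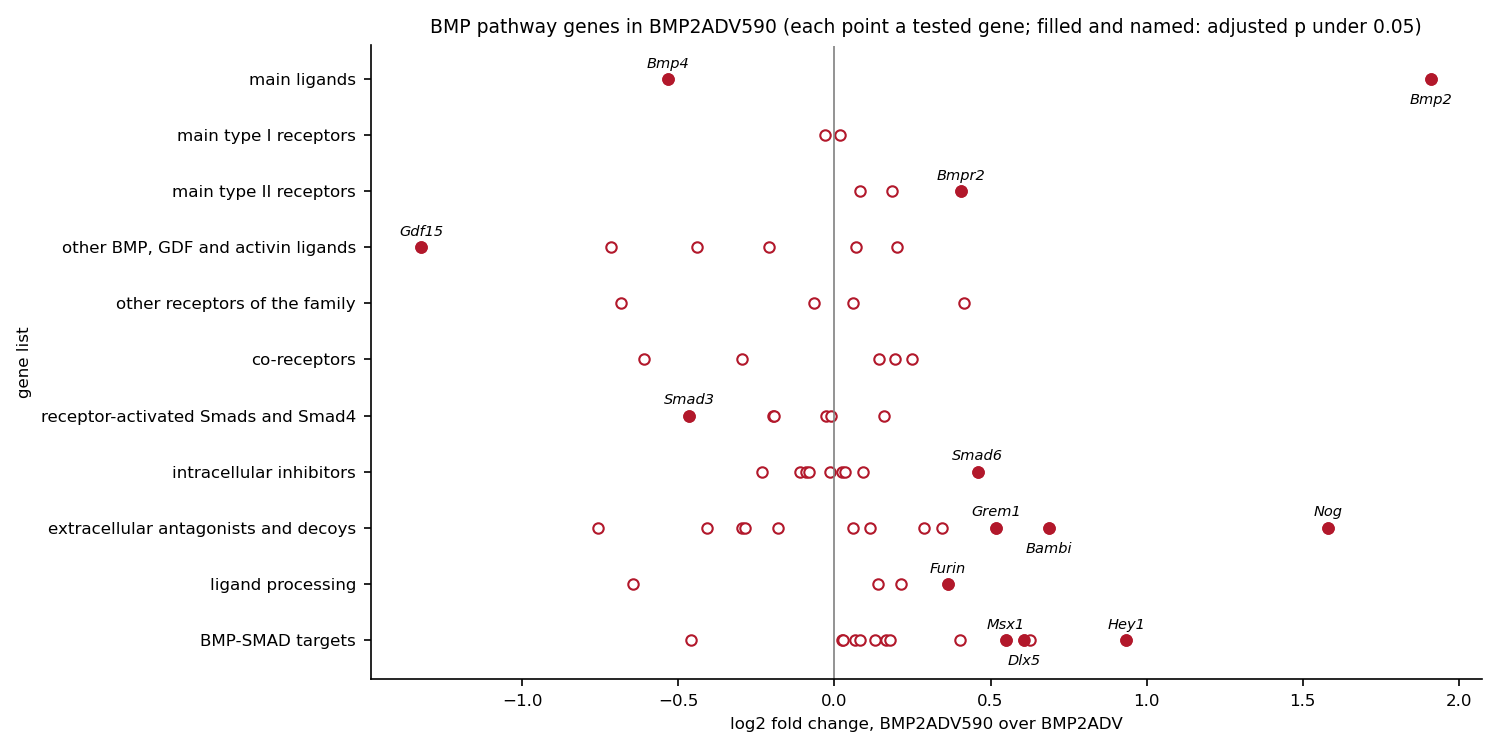
Log2 fold changes of the tested pathway genes in BMP2ADV590 against BMP2ADV, by role, with the 7 tested ligands and receptors described above in the upper rows marked main; each point is a gene, and filled, named points passed the adjusted edgeR threshold. In the other rows 8 filled points lie above 0 and 2 below.

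Of the 10 mesenchymal fibroblast markers 1 was called in BMP2ADV590 against BMP2ADV, Vim, which rose. Markers of other cell types also moved in this comparison, in which 8.26% of all genes were called. The 5 epithelial markers summed to 14.8 to 19.6 CPM in BMP2ADV590 and 6.76 to 7.01 CPM in BMP2ADV; Krt19 rose, and Krt8 was at 0. Cdh1, the only other one with counts in BMP2ADV590, was not called, at 1.49 ± 0.539 CPM in BMP2ADV590 and 2.10 ± 0.278 CPM in BMP2ADV. The 5 muscle markers summed to 9.52 to 10.65 CPM in BMP2ADV590 and 12.9 to 16.5 CPM in BMP2ADV, where Acta1 fell and Myod1 and Ckm were at 0. The 5 neural markers summed to 77.8 to 85.4 CPM in BMP2ADV590 and 100.6 to 108.6 CPM in BMP2ADV, where Map2 fell and Sox10 was at 0. Tubb3 and Gfap, the other neural markers tested, had positive log2 fold changes and were not called: Tubb3 averaged 17.5 ± 2.89 CPM in BMP2ADV590 and 11.6 ± 3.04 CPM in BMP2ADV, and Gfap 1.01 ± 0.117 CPM in BMP2ADV590 and 0.804 ± 0.711 CPM in BMP2ADV. The endothelial markers summed to 5.22 to 6.44 CPM in BMP2ADV590 and 7.84 to 11.2 CPM in BMP2ADV, with Cdh5 at 0 and no call, and the macrophage markers to 2.15 to 2.54 CPM in BMP2ADV590 and 1.57 to 2.88 CPM in BMP2ADV, with Adgre1 at 0. In BMP2ADV20a the sums were 11.6 to 12.5 CPM for epithelial, 14.9 to 16.1 CPM for muscle and 91.3 to 117.1 CPM for neural markers. In BMP2ADV148b they were 6.54 to 15.3 CPM, 8.72 to 10.7 CPM and 81.1 to 89.7 CPM. The part of these markers in the values above was not tested.

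The hybrid groups were also set against one another. BMP2ADV590 against BMP2ADV148b gave 2 calls among the 7 tested members (Bmpr2 higher, Bmp4 lower), beside 4.42% of all genes (2.45% higher and 1.97% lower). BMP2ADV590 against BMP2ADV20a gave 1 (Bmpr2 higher), beside 2.17% of all genes (1.29% higher). BMP2ADV20a against BMP2ADV148b gave none in edgeR, beside 0.559% of all genes. None of the tested members had an unadjusted p under 0.05 there either, beside 7.79% of all genes. Because comparisons share libraries, their calls are not separate evidence.

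The genes with the pattern closest to each of the 3 called members over the 12 libraries were taken from 9596 named genes for Bmp2, and 9595 for Bmp4 and Bmpr2, with at least 5 CPM on average, by Pearson's r of log2 CPM. These are descriptions over libraries that share 4 groups. For Bmpr2 they were Cd59a (r = 0.984), an inhibitor of complement, Gp1bb (r = 0.973), a platelet glycoprotein subunit, and Scd1 (r = 0.972), a fatty acid desaturase. Cd59a averaged 64.8 CPM in BMP2ADV590, 42.8 CPM in BMP2ADV20a, 41.1 CPM in BMP2ADV148b and 38.7 CPM in BMP2ADV. For Bmp2 they were Fbxl20 (r = 0.972), Adamts2 (r = 0.932) and Ovca2 (r = 0.923), and for Bmp4 Wls (r = 0.903), which carries Wnt proteins to the cell surface, Rrp15 (r = 0.902) and Ifrd1 (r = 0.9). Among the members, Bmp4 and Bmpr2 ran opposite to each other (r = -0.774), and Bmp2 had r = -0.5 with Bmp4 and 0.445 with Bmpr2.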

How the data were processed

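Per the labels, total RNA of transfected C3H/10T1/2 cells was made into QuantSeq 3′ mRNA libraries, amplified over 16 cycles. Per the submitters' processing notes, the tools were FastQC 0.11.5, STAR 2.5.2a and HTSeq 0.6.0 with build GRCm38. The authors deposited raw, unnormalised counts for each gene and library. Lines that name no gene, mainly multimapped reads, held 52.2% to 54.4% of records and were left out. How HTSeq treated strand and overlapping genes, and with which annotation, is not stated. Symbols came from GENCODE M21.

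From these counts, edgeR 4.0.16 (R 4.3.3) fitted 1 mean per group over the 12 libraries together (TMM, filterByExpr, quasi-likelihood F-test, Benjamini-Hochberg over 13229 genes, 0.05). The common biological coefficient of variation was 0.117. Fold changes are the first group over the second, and CPM uses normalised totals of all gene counts. The edgeR SEs were derived from the log2 fold change and the F statistic. The 95% intervals were built from these SEs with a t distribution, so both are approximate. A total of 0 was taken to allow 3 counts, which covers counting error only, since reads carry no molecular tags. The steps were tested on simulated data. Replicate libraries differed beyond sampling noise, so none was counted as a copy. Alternatives were DESeq2 1.42.0, limma-voom (limma 3.58.1), RLE scaling, no low-count filter, only the 2 groups compared, the replicate number as a block, and each library left out.

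The 10 genes and the lists were chosen with earlier results of these data known. Named are all members, up to 4 called genes of each other pathway list per hybrid group by smallest p, and 3 genes with the most similar pattern (log2 CPM, prior count 2) for each called member. Id1, Id2, Id3, Id4, Gata3, Smad1, Smad4, Smad5, Smad9 and the genes that overlap a member were named outside that rule, after their values were seen.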

Additional observations from a re-analysis of the deposited data

How the results depend on the processing

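Every edgeR call of Bmp2, Bmp4 and Bmpr2 in BMP2ADV590 against BMP2ADV held under all alternatives run, with 3 members called in each; with a library left out, the log2 fold changes ran from 1.656 to 2.215, -0.718 to -0.436 and 0.385 to 0.422. Elsewhere the number of called members moved. In BMP2ADV20a it was 1 (Bmp2, edgeR adjusted p = 0.0333) without the low-count filter. In BMP2ADV148b it was 0 with DESeq2, which gave Bmp2 no adjusted p, and 0 with limma-voom, and 0 to 1 with a library left out. In BMP2ADV590 against BMP2ADV20a it was 2 without the filter, 0 with only the 2 groups, and 0 to 1 with a library left out. In BMP2ADV590 against BMP2ADV148b it was 0 to 2 with a library left out. The causes were not tested. The replicate block left 0 called members in BMP2ADV590 against BMP2ADV20a; same-numbered libraries deviated together with correlations of only -0.113 to 0.0715, so the numbers were not taken to pair the samples. Every library correlated best with its own number in BMP2ADV20a against BMP2ADV148b alone.

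Signs turned only for differences that were not called. With limma-voom, Bmp2 was 0.004 in BMP2ADV590 against BMP2ADV148b and Acvr1 -0.002 in BMP2ADV590 against BMP2ADV. With a library left out, BMP2ADV590 against BMP2ADV ranged from -0.094 to 0.041 for Bmpr1a, -0.101 to 0.186 for Acvr1, -0.096 to 0.317 for Acvr2a and -0.053 to 0.329 for Acvr2b. BMP2ADV590 against BMP2ADV148b ranged from -0.337 to 0.366 for Bmp2, -0.014 to 0.272 for Acvr1 and -0.146 to 0.267 for Acvr2a. BMP2ADV590 against BMP2ADV20a ranged from -0.001 to 0.163 for Bmpr1a and -0.298 to 0.073 for Acvr2b. BMP2ADV148b against BMP2ADV ranged from -0.014 to 0.108 for Bmpr2 and -0.06 to 0.145 for Acvr2a. BMP2ADV20a against BMP2ADV148b ranged from -0.038 to 0.099 for Bmpr2 and -0.153 to 0.057 for Acvr2b.

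Counts over all genes moved more. BMP2ADV20a had 63 calls, but 107 with DESeq2, 184 without the filter, 145 with only the 2 groups, 36 with the block and 18 to 108 with a library left out. BMP2ADV148b had 33, but 85 with DESeq2, 126 without the filter, 14 with the block and 3 to 60 with a library left out. BMP2ADV590 against BMP2ADV20a had 287, but 519 without the filter, 172 with the block and 64 to 489 with a library left out. BMP2ADV20a against BMP2ADV148b had 74, but 137 without the filter and 22 to 93 with a library left out. With a library left out, BMP2ADV590 had 565 to 1115 calls against BMP2ADV (1093 with all) and 241 to 656 against BMP2ADV148b (585 with all), and the test of all 4 groups 548 to 891 (827 with all).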
